A study of Mus musculus with 21 samples.

Results

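Open chromatin of a medulloblastoma cell line treated with a control siRNA was set against that of tumors sorted from mouse cerebellum. The comparison holds 6 of the 21 libraries of a study of chromatin accessibility in medulloblastoma. They are 3 libraries of VDR cells with the control siRNA (siNC) and 3 of tumor cells. The study followed a genetically engineered mouse model from granule neuron progenitors (GNP, postnatal day 7) through hyperplasia (postnatal day 28) to tumor, and knocked down the NFI factors Nfia and Nfib in VDR cells (siNfia and siNfib). All libraries were made by Omni-ATAC, in which a transposase cuts accessible DNA. The tumor libraries came from tumor-bearing cerebella, dissociated and sorted for cells positive for EGFP. In the Atoh1EGFP mice that gave the GNP and hyperplasia cells, EGFP marks cells of the granule lineage. The alleles that drive the tumors, whether the tumor mice carry the same reporter, and their age are not given in the sources used here. The titles of the GNP libraries name Ptch1, with no allele. VDR is labelled as a medulloblastoma line of the mouse, kept in culture, and neither its origin nor its number of clones is given. The siNC cells received a control reagent called an siRNA in the labels, although its lists carry names with the prefix sh. The 3 libraries of a group are not stated to be separate animals or cultures, so every p-value below may measure technical spread alone. The groups differ in source, culture and reagent together, and these cannot be told apart.

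Cerebellar granule neuron progenitors divide in the outer layer of the young cerebellum under Sonic hedgehog, whose receptor Ptch1 releases Smo and the Gli transcription factors. Medulloblastomas of the Hedgehog group arise from these cells, which carry Atoh1 and Zic factors and on maturing switch on axon guidance receptors, ion channels and synaptic genes. Promoters and enhancers in use are depleted of nucleosomes and so give clusters of transposase cuts, whose centres a peak caller reports as summits. A summit marks accessible DNA and does not by itself measure transcription. In bulk libraries, a loss of summits in all cells and a smaller share of the cells that carry them cannot be told apart.

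More promoters were lost than gained in siNC, and how many more depended on the definition. Of 21263 promoter windows of 300 bases (250 before to 50 after a gene start) in 17492 genes, 320 (1.5%) held 1 of the 100000 strongest (kept) summits in all 3 tumor libraries and no summit of any score, with a margin of 100 bases, in the siNC libraries. The opposite pattern was found in 9 windows (0.0423%). With kept summits alone, and no demand on the whole lists of the other group, 578 windows were lost and 132 gained. Library strength differed between the groups, as given below. The 320 windows belonged to 303 genes. They included the promoters of Unc5c, a netrin receptor, En1, a homeobox factor of the midbrain and hindbrain, Olig2, a bHLH factor of neural and oligodendrocyte progenitors, Dpp6, a subunit of Kv4 potassium channels, and Cdkn2b, an inhibitor of cyclin-dependent kinases. Renbp, which encodes the renin-binding protein, was among the 9. The 250 bases before the start of each are shown because the first 5 belong to genes described below and Renbp stands for the gained promoters. They were not chosen for strength. They read 5′ to 3′ on the strand of the gene, with CG dinucleotides in capitals, and come from RefSeq on GRCm38.p6 (mm10).
Unc5c: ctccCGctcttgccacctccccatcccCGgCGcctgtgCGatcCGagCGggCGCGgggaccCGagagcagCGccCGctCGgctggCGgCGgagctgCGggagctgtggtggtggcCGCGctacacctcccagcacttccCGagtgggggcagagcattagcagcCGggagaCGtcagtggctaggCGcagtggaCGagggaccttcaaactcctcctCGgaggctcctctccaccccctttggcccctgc
En1: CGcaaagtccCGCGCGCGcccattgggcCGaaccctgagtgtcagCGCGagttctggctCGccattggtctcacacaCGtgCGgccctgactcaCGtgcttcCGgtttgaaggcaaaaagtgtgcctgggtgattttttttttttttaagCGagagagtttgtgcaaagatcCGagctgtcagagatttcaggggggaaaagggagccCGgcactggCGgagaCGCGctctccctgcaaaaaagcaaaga
Olig2: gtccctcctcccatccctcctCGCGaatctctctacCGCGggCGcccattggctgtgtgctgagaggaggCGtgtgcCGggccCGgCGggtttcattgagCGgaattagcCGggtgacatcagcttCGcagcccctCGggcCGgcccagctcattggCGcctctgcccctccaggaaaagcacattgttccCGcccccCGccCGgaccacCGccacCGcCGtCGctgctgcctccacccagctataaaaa
Dpp6: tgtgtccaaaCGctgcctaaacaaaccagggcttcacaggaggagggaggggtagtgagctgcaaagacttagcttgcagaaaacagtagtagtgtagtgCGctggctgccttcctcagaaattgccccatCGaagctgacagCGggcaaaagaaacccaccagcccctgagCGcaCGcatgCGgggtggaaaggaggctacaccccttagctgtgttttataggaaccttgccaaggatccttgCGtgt
Cdkn2b: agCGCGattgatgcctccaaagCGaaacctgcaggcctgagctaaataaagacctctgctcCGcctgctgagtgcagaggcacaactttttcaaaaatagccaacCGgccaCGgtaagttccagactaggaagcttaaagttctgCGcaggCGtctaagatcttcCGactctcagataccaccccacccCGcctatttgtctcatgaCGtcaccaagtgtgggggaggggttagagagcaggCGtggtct
Renbp: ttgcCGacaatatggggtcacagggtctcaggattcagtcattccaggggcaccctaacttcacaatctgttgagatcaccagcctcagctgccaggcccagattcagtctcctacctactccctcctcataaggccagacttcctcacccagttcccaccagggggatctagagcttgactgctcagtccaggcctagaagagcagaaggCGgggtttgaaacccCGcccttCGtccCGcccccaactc

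These stretches lay at chr3:141465314-141465563 on the plus strand for Unc5c, chr1:120602237-120602486 on the plus strand for En1 and chr16:91225300-91225549 on the plus strand for Olig2. Those of Dpp6 lay at chr5:26817107-26817356 on the plus strand, those of Cdkn2b at chr4:89311033-89311282 on the minus strand and those of Renbp at chrX:73930851-73931100 on the minus strand. They held 23 CG dinucleotides in Unc5c, 19 in En1, 22 in Olig2, 8 in Dpp6, 12 in Cdkn2b and 5 in Renbp. In Olig2 the tumor summits lay 187, 174 and 194 bases before the start and ranked 9191, 4673 and 6645 of the 100000 summits kept per library. In Unc5c they lay 79, 17 and 59 bases before the start and ranked 12221, 14571 and 16789. Both were thus strong tumor summits. The lost windows of Evi5l and Cstf2t ranked higher, at 2343, 2561 and 654 and at 2559, 3283 and 2746. The Dpp6 promoter was weaker, with ranks of 79040, 82270 and 94032. A further Dpp6 start at chr5:27048949-27049248 was lost as well, with ranks of 74478, 90006 and 94035. In Cdkn2b the summits lay 21, 24 and 4 bases after the start and ranked 24051, 25384 and 31417. The Renbp summits of the siNC libraries lay 14, 60 and 48 bases before the start and ranked 10346, 10939 and 21570.

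The lost promoters were not those poorest in CG. Over the 300 bases, lost windows held a median of 15 CG dinucleotides, against 23 in the 7421 windows open in all 6 libraries, 3 in the 7398 windows without a summit in any of the 6 and 13 in all windows. Their median GC content was 59.7%, against 62.3%, 46.7% and 56.3%. Gained windows had a median of 7 CG dinucleotides. Both strands were searched for TGANTCA (AP-1), GGAATG (TEAD), TTGGCA (an NFI half-site), CCACCCA (a GLI core) and CAGCTG (an E-box), none of which contains another. AP-1 letters stood in 6.56% of lost windows, 3.49% of windows open in all 6 and 6.99% of all windows. The NFI half-site stood in 11.9%, 10.5% and 13.1% of the same sets. GLI core letters stood in 11.9%, 9.07% and 9.46%. The E-box stood in 17.8%, 13.8% and 15.6%, and the TEAD letters in 9.38%, 10.2% and 13.6%. These matches are descriptions of letters, not of binding.

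The libraries that did not enter the comparison held the lost promoters along the same line. GNP libraries had a kept summit in 89.8% of the 320 lost windows and hyperplasia libraries in 86.5%. The share was 0.833% in siNfia, 2.29% in siNfib and 4.17% in untreated VDR libraries. Counting any summit of the whole list, it lay between 96.6% and 98.8% in the 6 GNP and hyperplasia libraries and between 5% and 18.8% in the 9 other VDR libraries. Of all 17492 genes with a window 1.73% had a lost one. Of the list genes below, 6 of 25 granule maturation genes with a window had a lost one (Chn2, Dpp6, Kcnip4, Nlgn1, Nrxn3 and Unc5c). So did 4 of 17 neural stem and glial progenitor genes (Olig2, Pou3f4, Sox8 and Vim), Pax6 and En1 among granule progenitor factors, and the collagen IV genes Col4a1 and Col4a2. Synaptic adhesion and axon guidance had 4 of 25, of which 3 are also maturation genes and the fourth is Cntnap2. Cell cycle machinery, tumour suppressors and immediate early factors had 1 each (E2f2, Cdkn2b and Egr2). The other gene lists had none, in at most 27 genes with a window each, too few to tell 0 from the share of all genes. The 8 gained genes other than Renbp were C2cd4b, Gm20939, Nt5c2, Rab40c, Zfp33b, Zfp345 and the interferon-induced neighbours Ifit1 and Ifit1bl2, whose windows overlap on opposite strands and share their summits. Of 138 tested genes with a lost window 64 were called with fewer and 8 with more regions by the gene test described below, which uses the same summits, against 812 of 5369 (15.1%) called with fewer among all genes with a window.

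**Figure D1:**
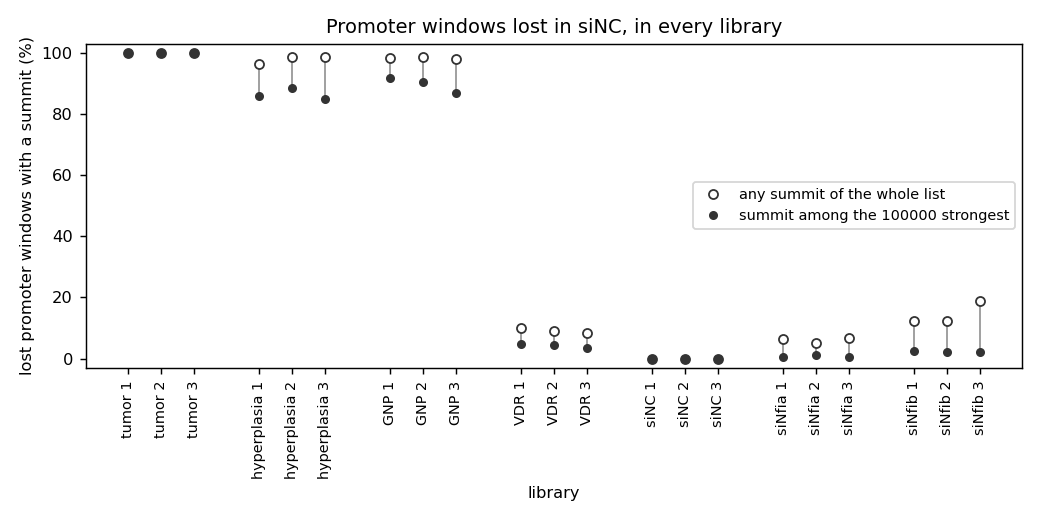
Percent of the 320 lost promoter windows (y axis) that held a summit in each of the 21 libraries (x axis), filled for the 100000 strongest summits and open for the whole list. Tumor and siNC values are fixed at 100% and 0% by the definition. GNP and hyperplasia libraries lie at 85% or above and the other VDR libraries at 18.8% or below.

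Library strength moved with the group. Each deposited summit has a score, taken here for a −log10 p or q value of its peak, and read depth is unknown. The score at rank 100000 was 4.95, 5.96 and 9.61 in the siNC libraries and 10, 21.3 and 11.8 in the tumor libraries. The groups did not overlap, and an exact two-sided permutation test gave p = 0.1, the smallest that 3 against 3 allows. The lists were similar in length, with 214421 ± 19028 summits in siNC and 219497 ± 38006 in tumor (SD, n = 3 each; exact permutation p = 0.8). Taking the pair nearest in strength, siNC replicate 3 with tumor replicate 1, 602 promoter windows held a kept summit in the tumor library and no summit in the other, against 134 the other way. Over all 9 pairs these counts were 571 to 990 and 70 to 134. The part of library strength in the other differences was not tested.

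Genes were compared by their number of occupied regions. Regions were 500 bp wide, a region counted as occupied in a library with 1 of its 100000 strongest summits inside, and a gene held the regions in its body or, outside bodies, nearest to it within 100 kb. Each gene's log2(regions + 1) was set against the mean of the 50 nearest tested genes on its chromosome, since whole chromosomes differed between the groups. Of 6756 genes tested, limma called 2324 (34.4%) at an adjusted p below 0.05. Relative to their neighbours, 1249 (18.5%) had more regions in siNC and 1075 (15.9%) fewer. Without the neighbour baseline the split turned, with 981 more and 1404 fewer, so that 41.1% rather than 53.7% of calls were higher in siNC. The plain region counts of the groups did not overlap in 2828 genes (41.9%), of which 1160 (17.2%) were higher and 1668 (24.7%) lower in siNC. Calls in which the plain counts moved the same way without overlap numbered 708 higher and 908 lower, and the genes of largest change named below come from these. Below, "change" means the log2 difference, siNC minus tumor, against the neighbours, with its standard error (SE) in the limma fit, and all adjusted p-values are from limma over the 6756 genes. The median change of all tested genes was 0.05. Leaving out tumor replicate 1, 2 or 3 left 772, 706 and 764 genes with more regions. Of the 140 called genes that the naming rule chose, 86 were called in each of the 6 fits that left out 1 library and tested them, among them all 28 of largest change named below, and 54 were not called in at least 1 of these fits. Under at least 1 other setting the direction turned for Disp1, Neurog1, Kcnip4, Kcna2, Ccne2, Junb, Dll1, Maml1, Maml2, Nkd1, Smad7, Tet2 and Mbp, with a call in the other direction for Junb alone.

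Of the 14 genes of largest change with fewer regions in siNC, 9 had no region in any siNC library. Ntrk2, the receptor for brain-derived neurotrophic factor, had 0, 0 and 0 occupied regions in the siNC libraries and 15, 15 and 18 in the tumor libraries (adjusted p = 3.53e-06). Spock1, a proteoglycan of the matrix, had 0 in all siNC libraries and 15, 16 and 14 in tumor (adjusted p = 3.53e-06). For Dpp6 the counts were 0 in all siNC libraries against 20, 15 and 18 in tumor (adjusted p = 7.02e-06). In these 3 genes every siNC library was empty and every tumor library rich in regions, and no fold is given against 0. Genes empty in siNC passed the filter, a mean of at least 3 regions over the 6 libraries, through their tumor counts alone. Their plain siNC counts have no spread, so their adjusted p-values, here and in the lists below, add no support to the counts. The same holds for their calls with a library left out. Gria1 and Gria3, which encode subunits of AMPA-type glutamate receptors, behaved alike. Gria1 had 0 in siNC and 10, 10 and 12 in tumor (adjusted p = 1.17e-05), and Gria3 had 0 in siNC and 7, 8 and 7 in tumor (adjusted p = 1.53e-05). Naaladl2 (0 against 11, 9 and 11), Ajap1 (0 against 9, 9 and 8), CK137956 (0 against 7, 8 and 11) and Dnah8, an axonemal dynein chain (0 against 4, 9 and 7), were also empty in siNC. In all, 24 called genes had no region in any siNC library, and 0 called genes had none in all 3 tumor libraries. Over all 21887 genes, tested or not, the numbers were near each other. There, 6232 genes had no region in any siNC library and 6063 had none in any tumor library. Beside those named so far, the 24 hold Unc5c, Gdf10 and Dkk2, which are described with their lists, and Clnk, Cpz, Fam110b, Hs3st3a1, Larp6, Lgi2, Nmnat3, Sorcs1, Syndig1, Tox, Trpc6 and Trpc7, named for this count after their values were seen.

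Other genes of this direction kept a few regions. Fstl4, a secreted follistatin-like protein, fell from 21, 19 and 22 regions in tumor to 0, 1 and 1 in siNC (change −3.35, SE 0.27, adjusted p = 8.71e-05). En1 had 1, 0 and 1 in siNC and 7, 6 and 11 in tumor (change −3.09, SE 0.33, adjusted p = 0.000313). Its promoter, shown above, was among those lost. Esrrg, an orphan nuclear receptor, had 3, 0 and 0 against 14, 12 and 12 (change −3.25, SE 0.41, adjusted p = 0.000704). Pcsk5, a proprotein convertase, had 0, 2 and 0 against 10, 10 and 15 (change −3.01). Lingo2, a transmembrane protein with leucine-rich repeats, had 2, 0 and 0 against 11, 11 and 10 (change −2.99). In each of these 5 genes the groups lay far apart. Spock1 lay in, and Lingo2 began in, sparse segments that are described with the chromosomes. The genes with fewer regions were long, with a median body of 86 kb, against 37.9 kb for those with more and 45.4 kb for all tested. Bodies of at least 200 kb made up 23.7% of them, 9.93% of those with more regions and 12.2% of all tested.

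The genes with more regions in siNC were of mixed function. Nkain2, which interacts with the sodium pump, had 13, 15 and 15 regions in siNC and 1, 0 and 1 in tumor (change 3.54, SE 0.25, adjusted p = 4.22e-05). Msn, the membrane-to-actin linker moesin, had 13, 12 and 12 against 2, 1 and 1 (change 2.53, SE 0.19, adjusted p = 6.14e-05). Both were nearly without regions in tumor and had over 10 in every siNC library. Tmem267 had 12, 10 and 8 against 2, 1 and 1 (change 2.42), and BC107364 had 6, 6 and 8 against 0, 1 and 1 (change 2.37). Serpinb8, a protease inhibitor, had 8, 11 and 8 against 1, 1 and 1 (change 1.79), and Itgbl1, an integrin beta-like protein, had 14, 10 and 8 against 2, 4 and 2 (change 1.78). Tex14, which makes intercellular bridges in the germ line, was well covered in both groups, with 37, 32 and 35 against 13, 12 and 14 (change 1.73, SE 0.10, adjusted p = 1.73e-05). Nucleolin, Ncl, had 14, 15 and 15 against 2, 4 and 4 (change 1.62), the threonyl-tRNA synthetase Tars 8, 7 and 6 against 1, 1 and 1 (change 1.63), and Bod1l 5, 3 and 5 against 2, 2 and 2 (change 1.66). None of these groups overlapped. The plain log2 difference of Bod1l was 0.81, so part of its change is that of its neighbours.

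A further 4 named genes had more regions in settings where single libraries or segments stood out. Sfi1, a centrosomal protein whose gene has near-identical copies in the mouse, had 42, 34 and 33 regions in siNC and 25, 4 and 4 in tumor, so its mapping is uncertain (change 2.41, adjusted p = 0.00871). Here 1 tumor library lay far above the other two. Dennd5b (43, 31 and 19 against 4, 4 and 2) and Resf1 (36, 7 and 7 against 2, 1 and 2) lay in a dense segment of chromosome 6, and Mpdz (89, 41 and 21 against 5, 6 and 6) in a dense segment of chromosome 4. In all 3 the first siNC library was highest. Their changes against the neighbours were 2.32, 1.80 and 2.05, and the segments are described with the chromosomes.

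**Figure D2:**
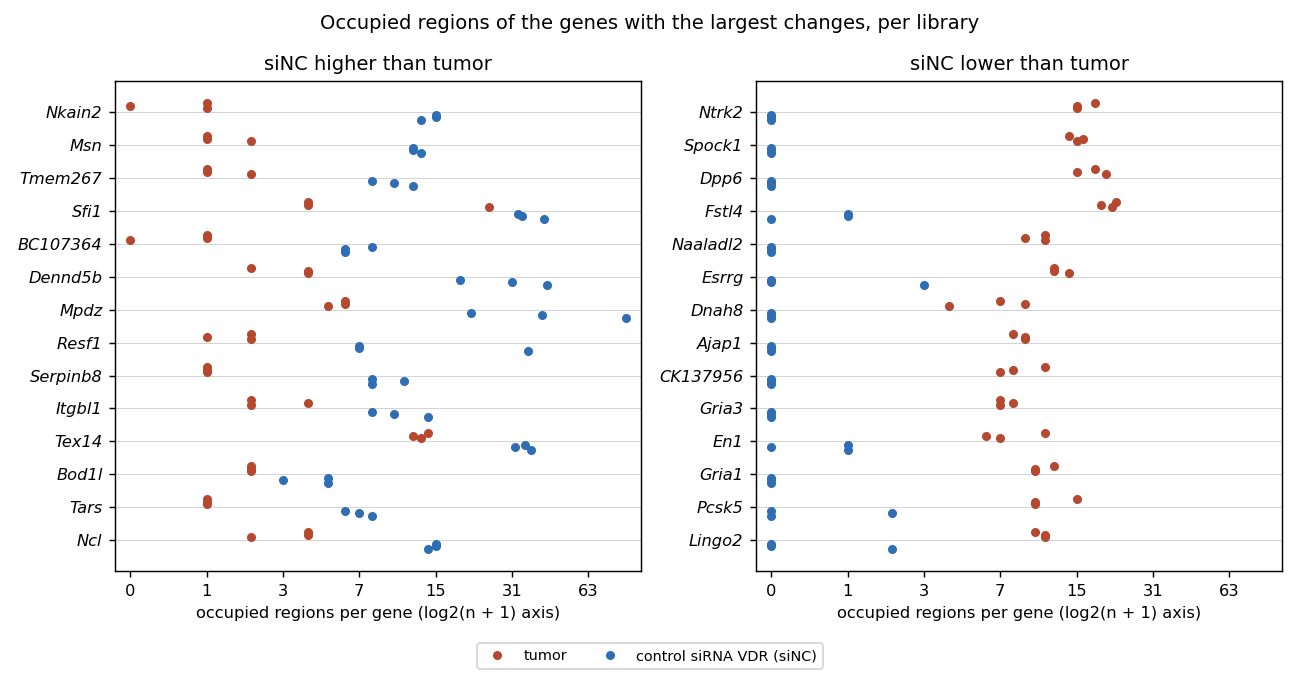
Occupied regions per gene (x axis, log2(n + 1) scale) in each tumor and siNC library for the 14 genes of largest change in each direction. By the rule that chose them the groups do not overlap in any of the 28 genes, and 9 genes on the right have no region in any siNC library.

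The genes of the Hedgehog pathway did not move together. Of 16 tested members 2 were called with more and 4 with fewer regions, against 18.5% and 15.9% of all tested genes, and their median change was −0.02. The receptor gene Ptch1 had 18, 16 and 14 regions in siNC and 17, 19 and 23 in tumor (change 0.18, adjusted p = 0.314). The effector Gli1 had 5, 6 and 5 against 7, 7 and 6 (change −0.01, adjusted p = 0.963). Gli2 had more regions without overlap, 69, 70 and 56 against 46, 39 and 43, but so did its neighbours on chromosome 1 (change 0.01, adjusted p = 0.961). Gli3 had 1, 0 and 0 against 3, 3 and 3 and was too low to be tested. Disp1, which releases the ligand, rose (11, 14 and 12 against 5, 6 and 9, change 0.78, adjusted p = 0.0195), as did Prkaca, a catalytic subunit of protein kinase A (change 0.49). The co-receptor gene Cdon fell (3, 4 and 4 against 9, 7 and 8, change −0.75), with the adaptor Spop (change −0.76) and the secreted Wnt antagonist Sfrp1 (7, 10 and 10 against 18, 21 and 22, change −0.99). The proliferation genes Mycn (15, 13 and 15 against 15, 15 and 15, adjusted p = 0.894) and Ccnd1 (11, 11 and 10 against 15, 15 and 16, adjusted p = 0.313) were not called.

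The NFI family, transcription factors of neural and glial differentiation and the targets of the study's knockdowns, had 3 of 4 members called with fewer regions and a median change of −0.45. Of all tested genes 15.9% were called with fewer. Nfia had 48, 49 and 53 regions in siNC and 53, 64 and 71 in tumor (change −0.44, SE 0.12, adjusted p = 0.0191), so the groups met at 53. It was not called without tumor replicate 2 or 3 or siNC replicate 1 or 2 (adjusted p = 0.0548, 0.0613, 0.0763 and 0.0523). Nfix had nearly equal counts, 35, 37 and 33 against 36, 39 and 36, and its call comes from the comparison with its neighbours (change −0.45, adjusted p = 0.00885). Nfic had 15, 11 and 17 against 23, 22 and 25 (change −0.49, adjusted p = 0.0212). Nfib went the other way in plain counts, 119, 85 and 78 against 43, 51 and 57, a plain log2 difference of 0.87, but not against its neighbours (change 0.20, adjusted p = 0.138).

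Granule lineage genes had calls in both directions. Of 26 tested granule progenitor factors 6 were called with more and 9 with fewer regions (median change −0.18). The shares of all tested genes were 18.5% and 15.9%. Atoh1, the bHLH factor that founds the lineage, had 18, 18 and 17 regions in siNC and 14, 13 and 10 in tumor (change 0.43, SE 0.11, adjusted p = 0.019). Its call was lost without tumor replicate 2 or 3 or siNC replicate 2 (adjusted p = 0.0576, 0.0697 and 0.0546). Zic2 (10, 12 and 11 against 6, 6 and 8, change 0.74) rose too, and Zic4 (change 0.50) and Neurog1 (6, 6 and 5 against 4, 6 and 5, change 0.65) were called with plain counts that overlapped. En1, Pax6 and Neurod1 fell. Pax6, a paired-box factor of granule cells, had 12, 10 and 9 against 21, 23 and 28 (change −0.95, adjusted p = 0.00184), and Neurod1, a factor of differentiating neurons, had 2, 4 and 3 against 8, 7 and 7 (change −0.91). Barhl2 had 6, 9 and 8 against 19, 20 and 18 (change −0.84). Of 25 tested genes of granule neuron maturation, 5 were called with more and 10 with fewer (median change −0.30). Unc5c, whose promoter was lost, had 0, 0 and 0 against 11, 9 and 8 (adjusted p = 3.22e-05). Grin2b, an NMDA receptor subunit, had 4, 1 and 0 against 14, 13 and 13 (change −2.59). The synaptic adhesion gene Nlgn1 had 3, 9 and 6 against 14, 15 and 16 (adjusted p = 0.0143). These genes act late, in guidance of the migrating cell and at its synapses. Among the members with more regions, Chn2, a Rac GTPase-activating protein, had 18, 15 and 16 against 12, 12 and 12 (change 0.42). Kcnip4, a subunit of Kv4 channels, was called with plain counts that overlapped (8, 10 and 9 against 10, 10 and 8).

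Synaptic and channel genes had more calls with fewer than with more regions in siNC. Of 28 tested genes of synaptic adhesion and axon guidance 4 were called with more and 11 with fewer (median change −0.33). The shares of all tested genes were 18.5% and 15.9%. Plain counts did not overlap in 17 that were lower and 4 that were higher, against 24.7% and 17.2% of all tested genes. Cntnap2, a neurexin-family protein of axons, fell from 41, 35 and 33 regions to 9, 11 and 12 (change −1.82, SE 0.15, adjusted p = 8.71e-05) and had the most lost regions of any gene, 22 against 1 gained. Lrrtm3 had 0, 3 and 0 against 5, 7 and 6 (change −1.77). Sema5a, a semaphorin, was among those with more, at 26, 25 and 24 against 12, 12 and 9 (change 0.74). The neuronal alpha-catenin gene Ctnna2 had 55, 51 and 52 against 31, 34 and 31 (change 0.55). Csmd3 had 5, 5 and 5 against 2, 1 and 1 (change 0.81). In all 3 the groups were apart. Of 23 tested genes of voltage-gated ion channels 3 were called with more and 11 with fewer (median change −0.35). Potassium channel genes led the fall. Kcnq5 had 1, 0 and 0 against 8, 7 and 8 (change −2.51). Kcnh5 had 3, 1 and 1 against 8, 10 and 7 (change −1.77). Kcna1 had 1, 1 and 1 against 7, 6 and 6 (change −1.53). The calcium channel gene Cacna1c moved the other way, with 92, 66 and 59 against 37, 40 and 34 (change 0.90, SE 0.09, adjusted p = 0.000186). With it rose the potassium channel genes Kcnn2 (change 0.70) and Kcna2 (change 0.73).

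Factors of neural stem and glial progenitor cells had a median change of −0.58, the lowest of the 17 gene lists plotted (cell type markers aside). Of 14 tested, 1 was called with more regions and 7 with fewer, against 18.5% and 15.9% of all tested genes. Olig2 had 1, 0 and 0 against 10, 10 and 11 (change −2.67, adjusted p = 0.000467). Its promoter was among those lost, which draws on the same summits. Sox6 had 1, 2 and 3 against 21, 20 and 19 (change −2.34, adjusted p = 0.000114). Sox5 (change −0.87; 45, 25 and 22 against 37, 38 and 37) was called although siNC replicate 1 lay above all tumor libraries, and Sox1 had 5, 7 and 11 against 13, 14 and 18 (change −0.71). Prom1, a marker of stem cells, was called with more, 4, 3 and 5 against 3, 3 and 3 (change 1.08), with plain counts that met.

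The signalling lists had calls in both directions. Of 15 tested Notch pathway genes 6 were called with more and 2 with fewer regions, against 18.5% and 15.9% of all tested genes. The median change of the list was 0.33, and 0.12 in plain counts. Plain counts did not overlap in 2 that were higher and 2 that were lower, against 17.2% and 24.7% of all tested genes. Regions summed over the list came to 138 to 147 per siNC library against 141 to 152. The receptor gene Notch3 had 5, 6 and 5 against 1, 1 and 1 (change 1.57, adjusted p = 0.000197). The ligand gene Dll1 had 7, 8 and 7 against 7, 5 and 6 (change 0.58). Its target Hes5 had 6, 6 and 7 against 4, 6 and 5 (change 0.53). Only Notch3 of these had plain counts that did not meet. The coactivator genes split. Maml3 fell from 34, 39 and 37 to 21, 22 and 22 (change −0.61), Maml1 fell too (change −0.55), and Maml2 was called with more (change 0.45). Of 22 tested Wnt pathway genes 3 were called with more and 5 with fewer (median change −0.15). The receptor gene Lgr5 had 0, 1 and 0 against 6, 9 and 7 (change −2.41). The secreted antagonist gene Dkk2 had 0 in siNC against 7, 6 and 5 (adjusted p = 8.71e-05). Both were thus nearly empty in the line. Among receptors of Wnt ligands, Fzd5 fell (change −0.88) and Fzd1 (change 0.99) and Lrp6 (change 0.95) were called with more. Nkd1, a feedback antagonist, rose from 20, 25 and 28 to 55, 44 and 42 (change 0.46). Of 20 tested BMP and TGF-beta genes 4 were called with more and 3 with fewer, against 18.5% and 15.9% of all tested genes (median change 0.12). Plain counts did not overlap in 2 that were higher and 6 that were lower, against 17.2% and 24.7% of all tested genes. Regions summed over the list came to 118 to 130 per siNC library against 153 to 172. Sums over all genes were lower in siNC too, 59933 to 63129 against 63217 to 65117. The median plain log2 difference of the list was 0.04. The ligand gene Gdf10 had 0 in siNC against 7, 8 and 9 (adjusted p = 1.73e-05). Another ligand gene, Bmp7, had 0, 0 and 1 against 4, 7 and 7 (change −2.08). The receptor gene Bmpr1b had 1, 1 and 1 against 7, 6 and 6 (change −0.99). The other receptor and Smad genes called went the opposite way. Bmpr2 had 11, 8 and 8 against 4, 4 and 5 (change 0.51), and Acvr1 (change 0.49) and Smad5 (change 0.64) were called with more, with plain counts that met. The inhibitory Smad7 was called (change 0.38) although its plain counts were not higher (8, 10 and 9 against 9, 10 and 9).

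Among 11 tested Hippo pathway genes 2 were called with more and 4 with fewer regions, against 18.5% and 15.9% of all tested genes. The median change of the list was −0.01, and −0.49 in plain counts. Plain counts did not overlap in 1 that was higher and 5 that were lower, against 17.2% and 24.7% of all tested genes. Regions summed over the list came to 88 to 91 per siNC library against 115 to 132. The DNA-binding partners of the pathway's coactivators split. Tead3 had 6, 6 and 5 against 2, 2 and 2 (change 1.04, adjusted p = 0.00132). Tead1 had 9, 11 and 12 against 27, 29 and 25 (change −0.76, adjusted p = 0.00122). The coactivator gene Wwtr1 fell, with 2, 4 and 3 against 7, 7 and 5 (change −0.72). So did Amotl1 (change −1.03), which holds the coactivators in the cytoplasm, and Vgll4 (change −0.93), which competes with them, while Amotl2 (change 0.52) was called with more. Of 17 tested AP-1 and immediate early genes 3 were called with more and 2 with fewer (median change −0.03). Atf3, a stress-induced factor, had 7, 5 and 6 against 2, 3 and 3 (change 0.80). Junb had 6, 6 and 6 against 3, 3 and 3 (change 0.46, adjusted p = 0.0345), a call kept in 1 of the 6 fits with a library left out. With 50000 summits per list Junb was called in the other direction (change −0.52, adjusted p = 0.0125). Jun, by contrast, had 11, 12 and 13 against 16, 16 and 15 (change −0.58). Nr4a1 was called with more (change 0.67) and Klf4 with fewer (change −0.65).

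Of 16 tested genes of the cell cycle machinery 5 were called with more regions and 1 with fewer, against 18.5% and 15.9% of all tested genes, and the median change of 0.06 was near the 0.05 of all genes. Plain counts did not overlap in 5 that were higher and 4 that were lower, against 17.2% and 24.7% of all tested genes. Regions summed over the list were lower in siNC, 143 to 144 per library against 154 to 160. So were those summed over all genes, 59933 to 63129 against 63217 to 65117. The median plain log2 difference of the list was 0.01. E2f1, a factor of S phase entry, had 6, 6 and 6 against 4, 5 and 5 (change 0.58). The cyclin gene Ccnd3 had 5, 8 and 9 against 3, 4 and 3 (change 0.81). Mki67, the gene of the proliferation marker Ki-67, was called with more (change 0.57). Ccne2 was called (change 0.57) although its plain counts were not higher (3, 3 and 4 against 4, 3 and 4). Ccnd2, a D-type cyclin of granule progenitors, fell from 17, 17 and 18 to 9, 8 and 8 (change −0.60, adjusted p = 0.00565). Of 16 tested tumour suppressors and cell cycle inhibitors 4 were called with more (Cdkn1b, Cdkn2c, Mdm4 and Nf2, changes of 0.79, 0.64, 0.63 and 0.42) and 2 with fewer. Mdm4, a member of the list, encodes an inhibitor of p53 and not a suppressor. The calls of Mdm4 and Nf2 were each kept in 1 of the 6 fits with a library left out. Bcor, a corepressor, fell from 21, 22 and 24 to 6, 5 and 9 (change −1.65, adjusted p = 0.000282). Cdkn2b, whose promoter was lost, had 2, 2 and 2 against 4, 5 and 4 (change −1.15). The median was 0.11 against the neighbours and −0.12 in plain counts.

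Of 25 tested chromatin regulators 3 were called with more and 5 with fewer, against 18.5% and 15.9% of all tested genes. The median change of the list was −0.02, and −0.16 in plain counts. Plain counts did not overlap in 4 that were higher and 6 that were lower, against 17.2% and 24.7% of all tested genes. Regions summed over the list came to 192 to 200 per siNC library against 258 to 279. Chd7, a remodeler needed in granule progenitors, fell from 43, 38 and 36 regions to 10, 11 and 11 (change −1.13, SE 0.10, adjusted p = 0.000108). Arid1b, a subunit of the BAF complex, had 28, 37 and 28 against 50, 61 and 50 (change −0.50), and Tet3 (change −0.56) and Bcor fell as well. Smarca4, the ATPase of the same complex, had 6, 5 and 5 against 4, 3 and 3 (change 0.76). The deacetylase gene Hdac9 had 14, 17 and 18 against 12, 8 and 8 (change 0.77). Tet2 (change 0.43) was called with plain counts that were not higher. Of 25 tested integrin, collagen and matrix genes 3 were called with more (Itgb1, Itgb8 and Sparc, changes of 0.87, 0.67 and 0.67) and 5 with fewer (median change −0.07). The integrin gene Itgb1 had 11, 11 and 10 against 5, 4 and 3. The laminin gene Lamb1 had 3, 3 and 3 against 6, 7 and 7 (change −1.03), and Lama1 (change −1.04), Cd44 (change −0.79) and Col4a1 (change −0.68) fell too. Of 23 tested selectors of other lineages 3 were called with more and 7 with fewer (median change −0.24). Six2, a factor of kidney and head mesenchyme, had 17, 12 and 12 in siNC and 3, 3 and 4 in tumor (change 1.40, adjusted p = 0.000749). Prrx1, a mesenchymal homeobox factor, had 13, 14 and 12 against 5, 5 and 5 (change 1.09, adjusted p = 0.0003). Tbx2 was called with more (change 0.64). Tbx18 had 1, 1 and 1 against 6, 6 and 6 (change −1.61), and Runx1 (change −1.16) and Tbx3 (change −1.06) fell too. The genes of the Hox clusters had few regions in either group, 12 to 17 summed per siNC and 7 to 12 per tumor library, with 24 of 32 genes at 0 in all siNC and 25 at 0 in all tumor libraries.

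**Figure D3:**
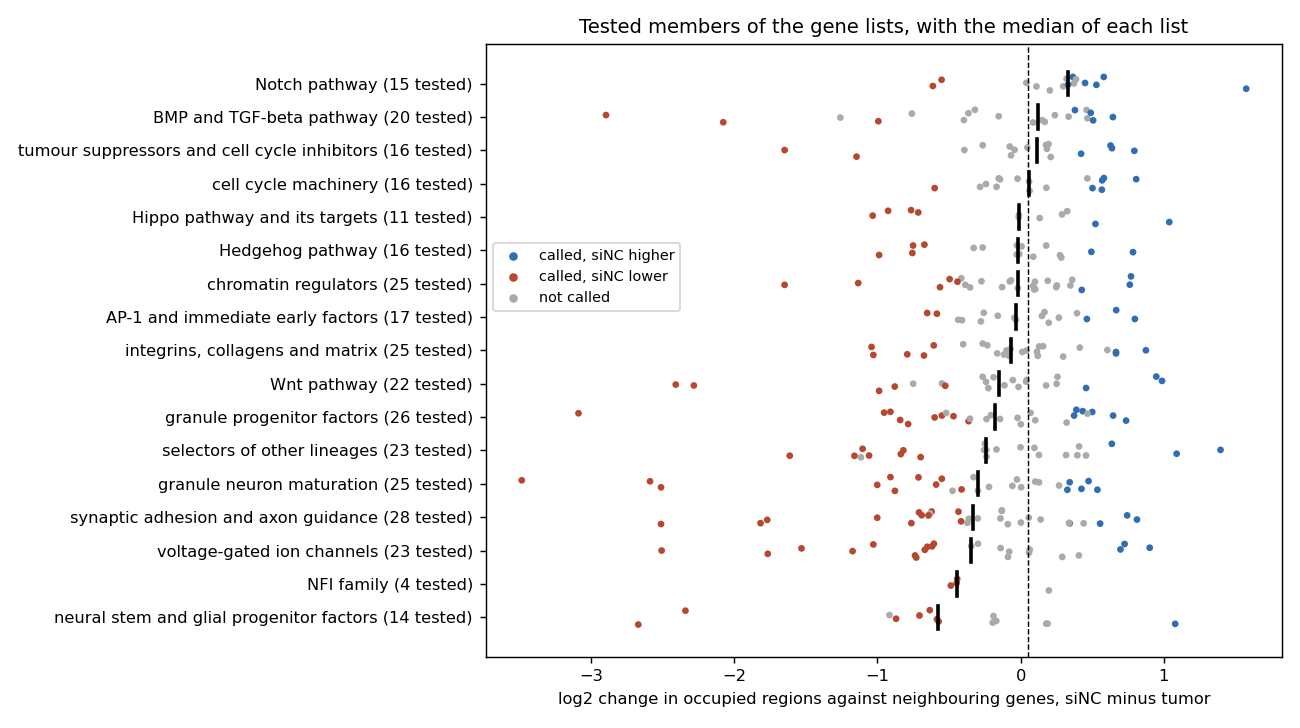
Change in occupied regions against neighbouring genes (x axis, log2, siNC minus tumor) for each tested member of 17 gene lists (rows). Thick bars give the list medians, from 0.33 for the Notch pathway to −0.58 for neural stem and glial progenitor factors, the dashed line the median of all 6756 tested genes (0.05), and colours the limma calls. Members at 0 in all siNC libraries are drawn at their fitted value, which depends on the pseudocount.

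Markers were examined for the identity of both groups. Of all tested genes 18.5% were called with more and 15.9% with fewer regions, for comparison. All 12 granule lineage markers were open in both, with 135 to 145 regions summed per siNC library and 156 to 167 per tumor library, 4 called with more (Atoh1, Zic1, Zic2 and Zic4) and 3 with fewer (Neurod1, Pax6 and En2, the last at 4, 2 and 4 against 12, 11 and 13). Markers of oligodendrocytes moved with the group. They summed to 30 to 36 regions in siNC and 60 to 64 in tumor, and 4 of 5 tested were called with fewer (Olig1, Olig2, Mbp and Pdgfra). Astrocyte markers summed to 46 to 50 against 59 to 64, with 2 of 6 called with fewer, Gdf10 and Slc1a2. Endothelial and mural markers summed to 31 to 33 against 40 to 46, with Kdr, Flt1 and Erg of 7 called with fewer. Purkinje and interneuron markers summed to 21 to 27 against 40 to 46, with Foxp2 of 3 called with fewer. Microglial and immune markers (12 to 21 against 15 to 18, Ptprc of 2 called with fewer) and fibroblast markers (55 to 61 against 60 to 63) overlapped or nearly met. S100b, Aldoc, Mag, Csf1r, Itgam, Cldn5 and Pax2 had no region in any of the 6 libraries. The part of other cells in the tumor libraries, or of wider lineage potential in tumor cells, was not tested.

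More single regions were lost than gained, while gene calls against the neighbours leaned slightly the other way. Of 121917 regions occupied in at least 1 of the 6 libraries, 12562 (10.3%) were occupied in all 3 tumor and no siNC libraries and 5420 (4.45%) the other way. Leaving out any library relaxes this rule and raises the counts. Without siNC replicate 1, 2 or 3, 8301, 7379 and 7143 regions counted as gained, and 6261 to 6372 without a tumor library. Requiring that the group without a region had no summit there in its whole lists left 7254 lost and 936 gained. Changed regions lay less often near gene ends than the regions shared by all libraries. Those within 1 kb of an end of a gene made up 11.3% of lost and 14.7% of gained regions, against 36.5% of the 32992 regions occupied in all 6, 19.6% of those occupied in any of the 6 and 11.9% of all 270959 regions. Regions over 100 kb from any gene made up 14.1% of lost and 9.58% of gained regions, against 6.19%, 9.62% and 10.9% of the same sets. Over whole libraries 6.89 ± 0.411% of siNC and 8.10 ± 0.238% of tumor summits lay that far from genes (SD, n = 3 each), with no overlap and an exact two-sided permutation p = 0.1. The share near gene ends was 30.4 ± 1.94% and 29.5 ± 0.550% (exact permutation p = 0.5) and overlapped.

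The lost regions of best rank, without a summit in any whole siNC list, lay in the bodies of Uggt2 (chr14:119007345-119007844), Bsn, the presynaptic scaffold bassoon (chr9:108104923-108105422), and Cd9 (chr6:125467221-125467720). Their mean ranks in tumor were 847, 1568 and 1574 of 100000. All 3 were occupied in all 6 GNP and hyperplasia libraries, and none in the 6 knockdown libraries except the Cd9 region, in 2. The gained ones lay 2182 bp from Eapp (chr12:54697831-54698330), 8373 bp from Igdcc3 (chr9:65195154-65195653) and in Gm52481 (chrY:90744290-90744789), with mean ranks of 1462, 2372 and 3305. All 3 were occupied in all 6 knockdown libraries. The first and second were occupied in no GNP or hyperplasia library and the one on chromosome Y in 3.

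Knockdown libraries lay on the siNC side for both sets of regions, and GNP and hyperplasia libraries on the tumor side. Of the gained regions, 79.3 ± 2.70% were occupied in siNfia and 74.0 ± 2.27% in siNfib libraries, against 18.9 ± 0.834% in GNP and 14.5 ± 1.16% in hyperplasia (SD, n = 3 each). Of the lost regions, 5.63 ± 0.683% and 10.8 ± 0.531% were occupied in siNfia and siNfib, against 69.0 ± 1.21% in GNP and 79.2 ± 2.30% in hyperplasia. Untreated VDR libraries held 34.3 ± 4.77% of the gained regions, between the sides, and 7.63 ± 0.725% of the lost regions, beside the knockdowns. The same was seen for genes. Among the 1249 genes called with more regions, 1199 (96.0%) had the same sign in the 6 knockdown libraries minus hyperplasia and 1162 (93.0%) in the knockdowns minus GNP. Among the 1075 called with fewer, 1036 (96.4%) and 991 (92.2%) did. These comparisons share no library with siNC against tumor, though the knockdown cells share the line and the reagent type with siNC.

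**Figure D4:**
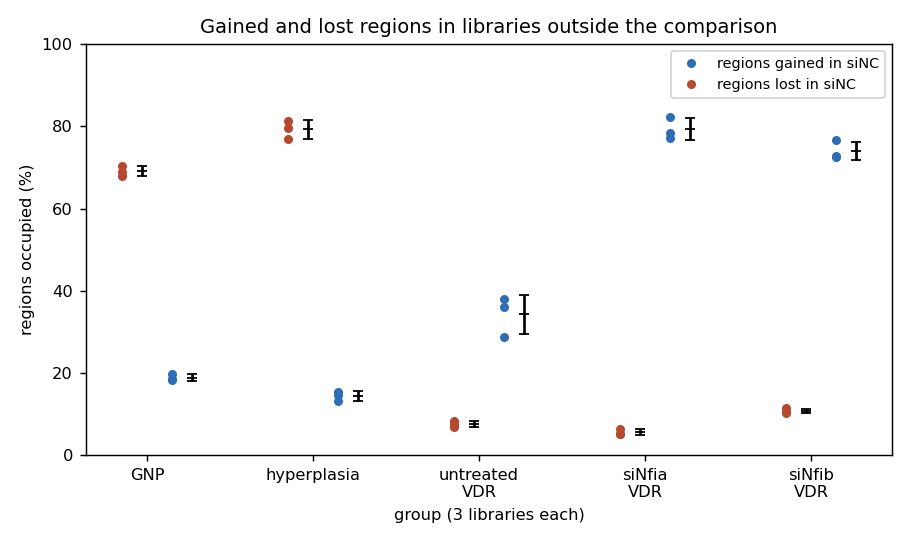
Percent of the 5420 gained and 12562 lost regions (y axis) occupied in each library of the 5 groups outside the comparison (points; bars are mean ± SD, n = 3). Lost regions lie near 69.0% and 79.2% in GNP and hyperplasia and at 10.8% or below on average in VDR groups, while untreated VDR cells hold 34.3% of the gained regions.

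Untreated VDR libraries stood apart from the siNC libraries of the same line. Their score at rank 100000 was 3.76 to 3.97, below every siNC library, and chromosome 1 held 15.1% to 16.8% of their kept summits against 8.01% to 8.85% in siNC. En1, on that chromosome, had 68, 85 and 48 regions in untreated VDR and 1, 0 and 1 in siNC. Gli2 had 337, 389 and 334, against 69, 70 and 56. Esrrg had 21, 13 and 15 in untreated VDR against 3, 0 and 0, and Msn 4, 1 and 5 against 13, 12 and 12. Bmp7 had 21, 18 and 14 in untreated VDR against 0, 0 and 1 in siNC, and Grin2b 12, 13 and 10 against 4, 1 and 0. Among the 14 genes of largest change with fewer regions in siNC, all 3 untreated libraries lay on the siNC side of the midpoint between the siNC and tumor means in 8 and none did in 4 (Esrrg, Dnah8, Ajap1 and En1). Among the 14 with more regions these numbers were 6 and 5 (Msn, Itgbl1, Tex14, Bod1l and Ncl). In those 9 genes the untreated libraries lay on the tumor side of the midpoint, or at it for replicate 1 in Ncl. Ncl (9, 8 and 7 in untreated VDR against 2, 4 and 4 in tumor) still differed from tumor in the siNC direction, without overlap. So did Ajap1 (6, 5 and 7 against 9, 9 and 8).

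Whole chromosomes differed between siNC and tumor, which the neighbour baseline takes out. Summits were more frequent in all 3 siNC than in all 3 tumor libraries on 7 chromosomes and less frequent on 11. Chromosome Y, counted among the 7, had the highest ratio but few summits, 0.058% to 0.063% against 0.006% to 0.021%. In siNC all of these lay at 90 to 92 Mb, so the excess on Y was that of 1 segment. Of the other chromosomes, 15 held 6.99%, 6.16% and 5.82% of kept summits in siNC and 4.27%, 4.16% and 4.14% in tumor, a log2 ratio of 0.59. Chromosomes 8, 1, 17 and 6 followed with 0.41, 0.40, 0.32 and 0.29. Chromosome 5 was lowest, with 4.62%, 4.70% and 5.09% against 6.27%, 6.51% and 6.45% (log2 ratio −0.42), followed by 11 (−0.29) and 18 (−0.28). The first siNC library stood apart from the other two on several chromosomes, for instance 6, with 9.33% against 7.74% and 7.48%.

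At a finer scale, 6 of 1300 windows of 2 Mb were at least 2 times denser in every siNC library than in any tumor library and 19 at least 2 times sparser. Windows counted only where the denser group had a mean of at least 50 kept summits. Among the 6, that of highest ratio, 90 to 92 Mb of chromosome Y, held 58, 60 and 63 kept summits in siNC and 7, 6 and 8 in tumor. The autosomal window of highest ratio among them, 148 to 150 Mb of chromosome 6, held 497, 291 and 224 kept summits in siNC and 75, 73 and 63 in tumor. It contains Dennd5b and Resf1, and 9 of its 10 tested genes were called with more regions. The window at 80 to 82 Mb of chromosome 4, with Mpdz, held 361, 190 and 164 against 55, 61 and 67. Both were dense in untreated, siNfia and siNfib VDR cells too. In both, siNC replicate 1 lay highest. Of the 19 sparse windows, that of lowest ratio, 38 to 40 Mb of chromosome 5, held 10, 9 and 12 against 56, 51 and 54. Named genes called with fewer regions lay in sparse windows too. Spock1 lay at 56 to 58 Mb of chromosome 13, with 53, 53 and 47 kept summits in siNC against 108, 113 and 109. Tead1 and Sox6 lay in sparse windows of chromosome 7, and Lingo2 began in one of chromosome 4. Neurog1 and Smad5 in that window of chromosome 13, and Ccne2 in one of chromosome 4, were called with more. DNA copy number was not measured, and its part in these segments was not tested.

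**Figure D5:**
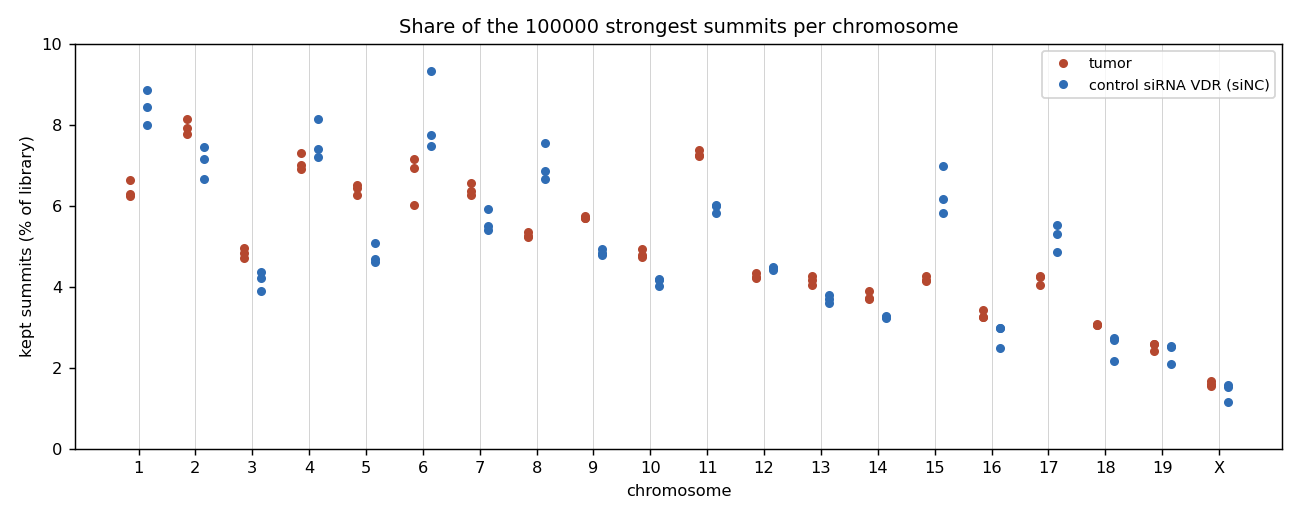
Percent of the 100000 kept summits (y axis) on chromosomes 1 to 19 and X (x axis) in each tumor and siNC library. The siNC points lie above the tumor points on chromosomes 1, 6, 8, 12, 15 and 17 and below on 2, 3, 5, 7, 9, 10, 11, 13, 14, 16 and 18.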

How the data were processed

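Accessible chromatin was measured by Omni-ATAC. For each library the authors deposited a list of summits in the format of the peak caller, with a score that was read as a −log10 p or q value. Per the submitters' processing notes, Bowtie2, Picard and MACS2 were used with mm10, and versions, read shifting, filters and thresholds are not given in the sources used here. Since deeper sequencing raises such scores, they served only to rank summits within a list.

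From each of the 21 lists the 100000 summits of highest score were kept, leaving out unplaced sequence, and merged by rank into 270959 regions of 500 bp. Between 79.3% and 81.5% of the kept summits of the 6 libraries compared lay in a region. Regions were assigned with the GRCm38.p6 annotation of 21887 protein-coding genes, and promoter windows came from RefSeq on the same build. Genes with a mean of at least 3 regions over the 6 libraries were fitted with limma 3.58.1 (R 4.3.3, trended empirical Bayes) on log2(regions + 1) minus the mean of the 25 nearest tested genes on each side, with Benjamini-Hochberg adjustment. Library values were compared by exact two-sided permutation tests.

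Named genes were the 14 of largest change per direction whose plain counts moved the same way without overlap (symbols of the Gm and Rik kinds left out, and 1 gene per 200 kb), up to 4 called members per direction of each of 25 lists, and Nfia, Nfib, Ptch1, Gli1, Gli2, Gli3, Atoh1, Mycn and Ccnd1. Some genes that the rule chose are not reported here. The comparison, the gene lists and the tests were chosen with earlier results of these data known. The alternatives varied the summits kept, region width, gene assignment, baseline, pseudocount, filter, libraries in the fit, replicate block and each library left out.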

Additional observations from a re-analysis of the deposited data

How the results depend on the processing

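The split of gene calls kept both directions under all alternatives, and the counts moved. Genes with more and with fewer regions in siNC numbered 670 and 622 with regions in gene bodies only, 626 and 549 with 50000 summits per list, 1694 and 1628 with whole lists, 1740 and 1718 with a mean of at least 1 region, and 1714 and 1963 without a filter. Leaving out 1 library gave 706 to 1163 and 737 to 1027. Called list members numbered 149, 86 in gene bodies only, 94 with 50000 summits and 89 to 136 with 1 library left out. Regions gained fell to 849 with a score of at least 10 and ranged from 6261 to 8301 with 1 library left out, while lost regions numbered 19632 with whole lists and 6871 with 50000 summits. With that score minimum the siNC excess in gene-end summits was 7.55 percentage points instead of 0.911, and it was −0.353 with whole lists, while the difference away from genes was −1.93 instead of −1.20. The same setting moved the median plain log2 change of all genes to −0.72. It kept 40587, 66042 and 96668 summits in the siNC libraries and 100829, 153207 and 111809 in the tumor libraries. The part of these unequal numbers in the shifts was not tested.

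No named gene of largest change turned direction under an alternative that tested it. Others did, mostly without a call. With whole lists the change was −0.0058 for Disp1, −0.12 for Neurog1, −0.13 for Junb, −0.12 for Dll1, −0.10 for Smad7 and 0.16 for Gli1. With 50000 summits it was −0.52 for Junb, −0.16 for Nkd1, 0.012 for Mbp and −0.071 for Gli2. With 150000 it was −0.12 for Junb, −0.045 for Maml2 and 0.0052 for Mycn. With a score of at least 10 it was −0.056 for Kcna2, 0.000297 for Maml1, −0.072 for Smad7, −0.13 for Nfib, 0.37 for Gli1, −0.10 for Gli2 and 0.046 for Mycn. In gene bodies only it was −0.12 for Ccne2, 0.22 for Gli1 and 0.12 for Ccnd1. Without the neighbour baseline it was −0.046 for Kcnip4, −0.11 for Ccne2, −0.051 for Smad7, −0.16 for Tet2 and −0.28 for Ptch1. With 100 nearest genes Ccne2 was at −0.17, and with 20 Nfib was at −0.13, Ptch1 at −0.069 and Gli2 at −0.31, a call in limma (adjusted p = 0.034). Junb at 50000 summits was also called (adjusted p = 0.013). Regions of 1000 bp gave 0.27 for Gli1, −0.0044 for Gli2 and 0.01 for Ccnd1, a pseudocount of 0.5 gave 0.0058 for Gli1 and −0.048 for Gli2, and regions from the 6 libraries gave 0.011 for Mycn. Lower filters gave −0.29 and −0.40 for Ptch1 and 0.0022 for Mycn. With 1 library left out it ranged from −0.11 to 0.052 for Gli1, from −0.075 to 0.066 for Gli2 and from −0.064 to 0.045 for Mycn.

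The libraries of a number did not pair, since deviations of same-numbered siNC and tumor libraries correlated at 0.028, −0.016 and −0.0014. With the replicate block 1169 genes had more and 1065 fewer regions. Named calls lost in at least 1 fit with a library left out included those of Nfic, Nfia, Disp1, Prkaca, Zic1, Zic2, Zic4, Neurog1, Atoh1, Kcnip4, Chn2, Nlgn1, Csmd3, Lrrtm3, Kcna2, Ccnd3, Mki67, Ccne2, Mdm4, Nf2, Nr4a1, Junb, Jun, Amotl2, Wwtr1, Sparc, Lama1, Cd44, Col4a1, Sox1, Dll1, Hes5, Maml1, Maml2, Lrp6, Nkd1, Smad5, Smad7, Bmpr2, Acvr1, Tet2, Tet3, Arid1b, Tbx2, Tbx3, Olig1, Mbp, Pdgfra, Kdr, Foxp2 and En2. Leaving out the genes of dense windows, an alternative chosen after seeing the data, gave 1248 and 1070. Read depth is unknown, summit counts per gene are small, and a missing summit shows no more than that none was ranked or listed there.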

Other observations

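Ranked by changed regions rather than by region counts, the genes with the most regions gained in siNC were Gm52481 on chromosome Y (22 gained, 0 lost), the matrix protein gene Adamtsl1 (19 and 0) and Tex14 (17 and 0). Some long genes changed in both directions, such as Gse1 (13 gained, 8 lost), Cacna1c (11 and 6) and Nav2 (9 and 13). After Cntnap2 the most losses were in Camta1 and the cell adhesion gene Lsamp (1 gained, 18 lost each), the sodium channel gene Asic2 (2 and 17) and the zinc transporter gene Slc39a11 (0 and 17). These genes were chosen by their counts, and no test was made.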
